A study of Mus musculus with 6 samples.

Results

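The genes described here are those of the mitochondrial genome, measured in hearts of mice with heat stroke (HS) and of sham mice. They were taken as every gene of the deposited count matrix whose symbol starts with mt-, which gave 37 of 57180 genes: 2 ribosomal RNAs (rRNAs), 13 coding genes and 22 transfer RNAs (tRNAs). Of these, 28 lie on the plus strand of the reference mitochondrial sequence and 9, mt-Nd6 and 8 tRNAs, on the minus strand.

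The mitochondrial genome is a small circle whose strands are named heavy and light. Transcription starts in the control region and gives long RNAs that cover many genes. These are cut at the tRNAs that lie between the other genes, and the freed mRNAs and rRNAs are then tailed with adenines by the poly(A) polymerase Mtpap. The 12S and 16S rRNAs build the mitochondrial ribosome, and the tRNAs serve translation. The 13 coding genes, each counted as an mRNA of its own below, encode core subunits of respiratory complexes I, III and IV and of the ATP synthase. The plus-strand genes are called heavy-strand genes below, after the promoter that transcribes them, and the minus-strand genes are called light-strand genes. In mammals the rRNAs carry only short adenine tails, and in human cells the ND6 mRNA carries no long one, which matters for libraries made by poly(A) selection.

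Each group held 3 male C57BL/6N mice, an inbred strain, aged 6 to 8 weeks, with 1 library per heart. HS mice stayed at an air temperature of 40 °C and a humidity of 60 to 65% until their core temperature was 42 °C, sham mice stayed at 22 to 25 °C, and all mice went without food and water. RNA was poly(A)-selected, and libraries that mark the strand were read from both ends. The time between the end of heating and collection is not given in the sources used here, and the submitters' extraction text speaks of cell lines although the labels give heart.

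Libraries held 22098487 to 25855876 counts. The cardiomyocyte markers were high in every heart, and the 10 of them summed to 54525 to 56571 CPM, that is counts scaled to a common library total, in the sham group and to 47272 to 61810 CPM in the HS group. HS hearts 1 and 3 stood apart: the 7 atrial cardiomyocyte markers summed to 3751 and 2848 CPM there, against 92.8 to 113 CPM in the sham group and 140 CPM in HS heart 2. Fibroblast markers (7 genes) summed to 1132 and 1697 CPM in those hearts, against 600 to 726 CPM in the sham group and 727 CPM in HS heart 2. In bulk tissue, fewer cells of a type and less RNA per cell cannot be told apart.

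Sequences at the borders of the genes are shown because the levels of neighbouring genes are compared below. They are reference sequence from the GENCODE vM21 transcripts (GRCm38, the build also called mm10), not sequence read from these hearts. Capitals mark the tRNA at which the long RNA is cut, and the lower-case ends are 30 bases of each neighbour. The first run crosses mt-Rnr1 (12S rRNA), mt-Tv (tRNA for valine) and mt-Rnr2 (16S rRNA) at chrM:995-1123 on the plus strand. The second crosses mt-Rnr2, mt-Tl1 (a tRNA for leucine) and mt-Nd1 at chrM:2646-2780 on the plus strand. In human cells the factor MTERF1 binds within the gene of this leucine tRNA.
mt-Rnr1 mt-Tv mt-Rnr2: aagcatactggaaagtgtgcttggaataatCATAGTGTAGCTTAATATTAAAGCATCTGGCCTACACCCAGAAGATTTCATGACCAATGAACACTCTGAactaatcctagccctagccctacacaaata
mt-Rnr2 mt-Tl1 mt-Nd1: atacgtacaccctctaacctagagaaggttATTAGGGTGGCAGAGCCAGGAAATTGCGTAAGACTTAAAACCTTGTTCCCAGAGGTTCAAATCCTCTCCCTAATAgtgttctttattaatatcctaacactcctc

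The last 30 bases of 3 coding genes are shown because their stop codon is not whole in the genome. Each ends in the T in capitals, and the codon is completed to TAA by the adenine tail. They lie on the plus strand, mt-Co3 at chrM:9361-9390, mt-Nd4 at chrM:11515-11544 and mt-Cytb at chrM:15259-15288.
mt-Co3: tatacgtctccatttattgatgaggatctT
mt-Nd4: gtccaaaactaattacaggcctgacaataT
mt-Cytb: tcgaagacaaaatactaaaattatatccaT

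Across all 37 genes, the share of a heart's counts was 33.3, 34.5 and 34.7% in sham hearts 1 to 3 and 32.4, 33.7 and 37.5% in HS hearts 1 to 3. The groups overlapped (exact two-sided permutation test over hearts, p = 0.9). The 13 mRNAs together took 31.6, 32.8 and 33.0% in the sham group and 29.6, 30.6 and 32.0% in the HS group, and these ranges overlapped as well (exact permutation p = 0.2). These sums leave out counts on nearly identical nuclear copies of coding genes, which are described below. With those copies added, all 37 genes took 45.1, 46.6 and 47.3% in the sham group and 43.7, 45.8 and 51.3% in the HS group. The 13 mRNAs then took 43.4, 44.9 and 45.7% against 41.0, 42.6 and 45.8%, and both sums overlapped between the groups. Some of the parts did not overlap, as given below. With 3 hearts against 3, the smallest p that this test allows is 0.1, so no single value could pass 0.05. A family of 9 such values was tested, in which an exact p of 0.1 becomes 0.15 after Benjamini-Hochberg adjustment.

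Gene by gene, 19 of the 37 had enough counts for the test across all genes (edgeR's quasi-likelihood test), namely both rRNAs, all 13 coding genes and 4 tRNAs. None was called at an adjusted p under 0.05, where 0.0612% of the 14717 genes tested were called. At an unadjusted p under 0.05, 2 were higher in the HS group (both rRNAs, against a background of 8.83% of all genes) and 2 lower (mt-Nd5 and mt-Nd6, background 4.76%). DESeq2, which called 351 of the 14717 genes, called mt-Rnr2 alone among the 19. Normalized CPM of the groups did not overlap for 2 genes higher in the HS group (both rRNAs, background 11%) and for 3 lower (mt-Nd5, mt-Nd6 and mt-Tq, background 10.9%), and overlapped for 14. The median log2 fold change was -0.04 over the 19 and 0.01 over all genes tested. Counts this small against these backgrounds set nothing apart as particular to mitochondrial genes.

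The 16S rRNA, mt-Rnr2 (chrM:1094-2675), took 1.23, 1.21 and 1.22% of the counts in sham hearts 1 to 3 and 2.18, 2.57 and 4.38% in HS hearts 1 to 3. Every HS heart lay above every sham heart, and the sham hearts lay within a few hundredths of a percent of each other. The log2 fold change was 1.40 (SE 0.31, edgeR adjusted p = 0.220), and its adjusted p ran from 6.0e-06 to 0.656 over the alternatives. Without HS heart 3 the log2 fold change was 0.94, with an adjusted p of 0.0056 by edgeR. Without HS hearts 1 and 3, an alternative chosen after seeing the data, it was 1.11 with an adjusted p of 6.0e-06 by edgeR, which then assumes that the lone HS heart varies like the sham hearts.

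The 12S rRNA, mt-Rnr1 (chrM:70-1024), took 0.447, 0.460 and 0.467% in the sham group and 0.574, 0.590 and 1.17% in the HS group. All HS hearts were again above all sham hearts, and HS heart 3 was far above the other HS hearts. The log2 fold change was 0.85 (SE 0.34, edgeR adjusted p = 0.345). HS heart 3 set much of this size, since the log2 fold change was 0.32 without it (edgeR adjusted p = 0.103). Without HS hearts 1 and 3, which leaves a lone HS heart with no replicate, the log2 fold change was 0.40.

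The rRNAs did not move by the same amount. For each 100 counts of mt-Rnr2 there were 36.3, 37.9 and 38.2 counts of mt-Rnr1 in the sham group and 26.3, 22.9 and 26.8 in the HS group. The ratio was lower in every HS heart than in any sham heart, by 12.1 on average (exact permutation p = 0.1, adjusted p = 0.15), and HS heart 3 lay with the other HS hearts here. Leaving out 1 heart at a time gave differences from -12.9 to -10.9.

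The rRNAs were also compared with the mRNAs of the same library, which needs no scaling between hearts. There were 5.31, 5.10 and 5.11 rRNA counts per 100 mRNA counts in the sham group and 9.30, 10.3 and 17.4 in the HS group. The groups lay apart, and the log2 ratio differed by 1.20 (exact permutation p = 0.1, adjusted p = 0.15), or by 0.92 without HS heart 3. With the nuclear copies added to the mRNAs, the ratio was lower in both groups, at 3.87, 3.73 and 3.70 against 6.72, 7.42 and 12.1. The groups again lay apart, and the log2 ratio then differed by 1.17. Across the leucine tRNA printed above, mt-Nd1 had 258, 267 and 261 counts per 100 counts of mt-Rnr2 in the sham group and 133, 119 and 66.2 in the HS group. The gene on one side of that tRNA was higher in every HS heart and the gene on the other side was not, as the plot of rRNA levels and the plot in gene order show.

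**Figure D1:**
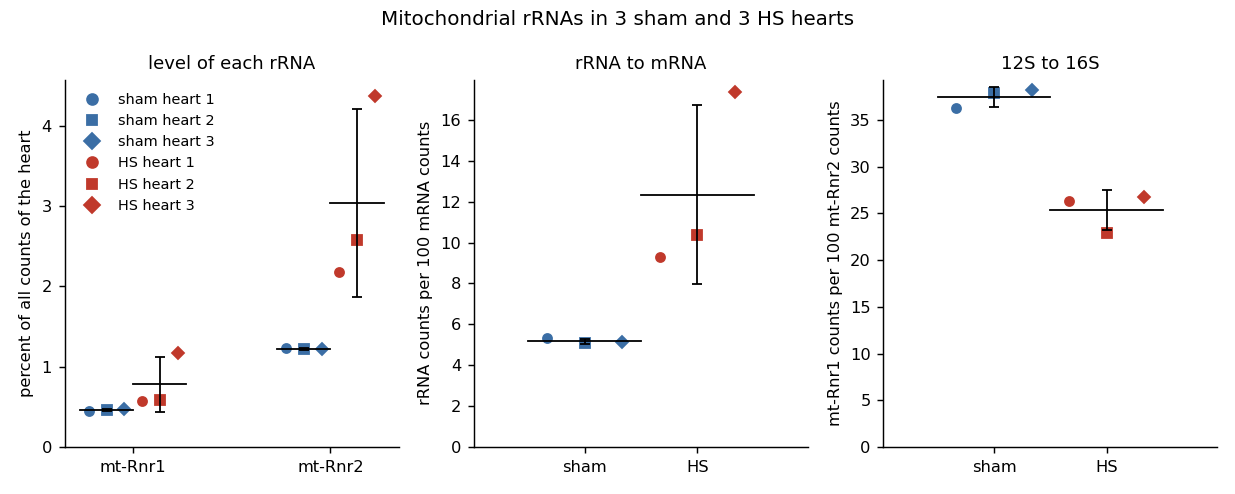
Percent of all counts on mt-Rnr1 and mt-Rnr2 (left), rRNA counts per 100 mRNA counts, without the nuclear copies (middle), and mt-Rnr1 counts per 100 mt-Rnr2 counts (right) in each heart. Points are hearts, horizontal lines are group means and bars are 1 SD (n = 3 per group); the rRNA levels of the HS hearts, up to 4.38% for mt-Rnr2, lie above those of the sham hearts, and the 12S to 16S ratio lies below, at 22.9 to 26.8.

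Markers of other cell types were set beside the rRNA level. The erythroid markers (5 genes) summed to 136 to 316 CPM in the sham group and to 154, 616 and 1546 CPM in HS hearts 1 to 3, which is also the order of the rRNAs among the HS hearts. The smooth muscle markers (4 genes) summed to 122 to 157 CPM in the sham group and to 500.1, 207 and 497 CPM in HS hearts 1 to 3. The atrial and fibroblast markers, given above, were highest in HS hearts 1 and 3, and those of fibroblasts were highest in HS heart 3, as the rRNAs were. The part of the atrial, fibroblast, erythroid and smooth muscle markers in the rRNA result was not tested.

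Because the mitochondrial rRNAs carry only short tails, RNAs of the nuclear genome that lack a long tail were examined as well. Of 25 such genes listed, 13 were tested. Among them edgeR called 0 (9 of 14717 over all genes) and DESeq2 called 2, Rn7sk and H2ac18 (351 of 14717 over all genes). At an unadjusted p under 0.05, 1 was higher (background 8.83%) and 1 lower (background 4.76%), counts near those backgrounds. Their median log2 fold change was -0.03. Most of the 13 were histone genes, so the median and these counts describe mainly histone genes. The higher one, Rn7sk, the RNA of the 7SK particle that holds back transcription elongation, had 0.558, 0.377 and 0.815 CPM in the sham group and 1.69, 2.29 and 4.87 CPM in the HS group. The groups did not overlap, and its log2 fold change was 2.32 (SE 0.49, edgeR adjusted p = 0.199).

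The lower one, the histone gene H2ac18, had a log2 fold change of -1.25 (SE 0.31, edgeR adjusted p = 0.254). The groups overlapped for the other 11 genes tested, among them Rn7s1 and Rn7s2, RNAs of the signal recognition particle with the same counts in every heart (log2 fold change 0.59, edgeR adjusted p = 0.622), and Scarna2, a guide RNA of Cajal bodies (log2 fold change -0.30, edgeR adjusted p = 0.631). Too low for the test, and named after their values were seen, were Rpph1, the RNA of nuclear RNase P, with 0 counts in each sham heart and 7, 3 and 6 counts in the HS group, and Rmrp, the RNA of RNase MRP, with 0, 0 and 1 against 6, 3 and 8 counts. The cytoplasmic 18S rRNA copy Rn18s-rs5, chosen after its values were seen, had 488, 424 and 605 CPM in the sham group and 556, 454 and 465 CPM in the HS group, which overlap and do not follow the mitochondrial rRNAs. The part of tail selection in the rRNA result was not tested.

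Before the coding genes are compared, their sequence matters, because 7 of them have a nearly identical annotated copy in the nuclear genome. The copies lie next to each other on chr1:24611535-24616197, minus strand (GRCm38), a block of 4663 bases that matches the mitochondrial genome from mt-Co1 to mt-Nd4. Such blocks are insertions of mitochondrial DNA into a chromosome. Only annotated transcripts were compared, so copies of other genes within the matched span, mt-Atp8 (chrM:7766-7969) among them, could have been missed. All 7 pairs match in at least 294 bases, with 1 mismatch for mt-Co1 with Gm29216 and for mt-Nd3 with Gm28438 and none for the others. The first 60 bases of mt-Co2 (chrM:7013-7072, plus strand) and of its copy Gm28661 (chr1:24615506-24615565, minus strand) are shown because they are the same in every base.
mt-Co2: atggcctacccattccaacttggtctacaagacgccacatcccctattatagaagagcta
Gm28661: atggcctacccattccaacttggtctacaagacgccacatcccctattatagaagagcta

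Within the matched stretches, the mismatches are the only bases that tell a pair apart, and they are in capitals below. Positions are counted from 1 at the first base of the mitochondrial gene, with its base first. The pair of mt-Co1 (chrM:6390-6413, plus strand) and Gm29216 (chr1:24616165-24616188, minus strand) differs by A1066T, and that of mt-Nd3 (chrM:9459-9481, plus strand) and Gm28438 (chr1:24613097-24613119, minus strand) by T3C.
mt-Co1: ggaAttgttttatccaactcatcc
Gm29216: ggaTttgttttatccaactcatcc
mt-Nd3: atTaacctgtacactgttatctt
Gm28438: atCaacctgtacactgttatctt

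Most counts of several coding genes stood on the copies. Gm28661 held 97.7 to 98.5% of the counts of its pair with mt-Co2, the gene of cytochrome c oxidase subunit 2, over the 6 hearts. Gm28437 held 93.8 to 95.6% of its pair with mt-Co3 (subunit 3), and Gm10925 held 76.9 to 79.4% of its pair with mt-Atp6 (subunit a of the ATP synthase). For the complex I genes mt-Nd3 and mt-Nd4l the copies Gm28438 and Gm10222 held 77.2 to 82.6% and 62.9 to 70.8%. In contrast, Gm29216, which matches 483 bases of mt-Co1, held 2.92 to 3.82% of its pair, and Gm28439, which matches 876 bases of mt-Nd4, was at 0 counts in every heart.

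The shares on the copies differed more between genes than between groups, and together the copies took 11.8, 12.1 and 12.6% of all counts in the sham group and 11.4, 12.1 and 13.8% in the HS group. With identical sequence, the counts cannot tell which of the copy or the mitochondrial gene a read came from. So the values of these genes are given below with the counts of each copy added to its gene, an alternative chosen after seeing the data. Only matches in the same direction were kept in this search. Other annotated nuclear transcripts that match a coding gene in this way at 90% or more had 0 to 106 counts per heart. No annotated nuclear transcript matched mt-Rnr1, mt-Rnr2 or mt-Nd1 in the same direction at that level over 100 bases.

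**Figure D2:**
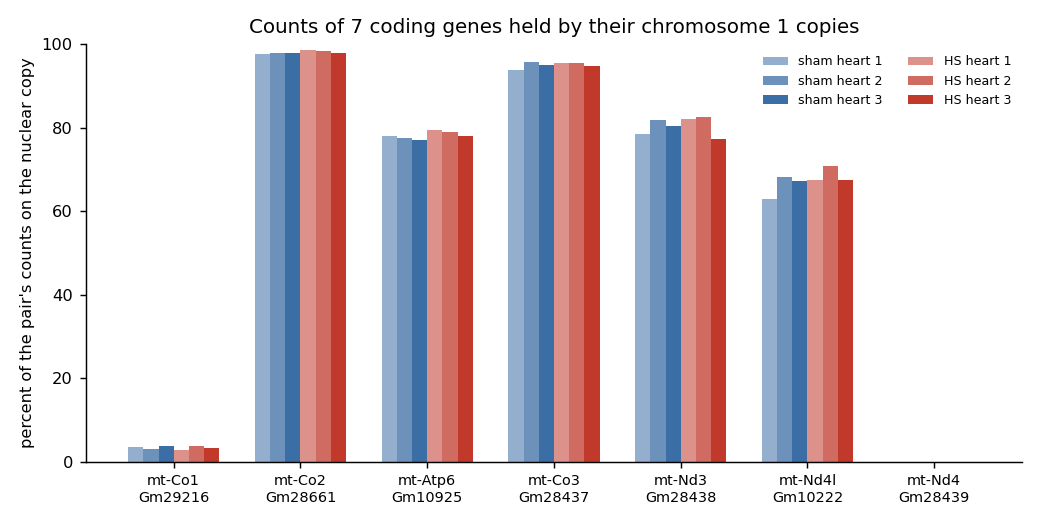
Percent of the counts of each pair that stood on the chromosome 1 copy, per heart, for 7 coding genes in the order of the genome (blue, sham hearts; red, HS hearts). The copies hold 97.7 to 98.5% of the mt-Co2 pair and 0% of the mt-Nd4 pair, with similar bars in both groups.

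With copies added, the levels per kilobase of gene spanned a wide range. In CPM per kilobase, not TMM-scaled, mt-Co1 (subunit 1 of complex IV) had the highest mean in both groups. Its level was 83841 ± 1613 in sham and 75376 ± 2115 in the HS group (SD, n = 3). It was followed by mt-Co2 (71223 ± 2102 and 71973 ± 8268) and mt-Co3 (53796 ± 1654 and 53978 ± 5873), with mt-Co1 and mt-Co2 separate in the sham group only. By group mean, the order of the first 7 genes was the same in sham and HS hearts and went on with mt-Atp6, mt-Cytb, mt-Nd1 and mt-Nd4. However, mt-Atp6 and mt-Cytb, and in the HS group mt-Nd1 and mt-Nd4, did not separate beyond their spread. Single hearts departed from this order. In HS heart 3, mt-Co2 (81411) lay above mt-Co1 (73617) and mt-Nd4 (35170) above mt-Nd1 (30263).

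The rRNAs were the lowest of the 15 in the sham group on this per-kilobase scale, at 7722 ± 55.5 for mt-Rnr2 and 4794 ± 107 for mt-Rnr1. By group mean, mt-Rnr2 stood at 19234 ± 7403 in HS hearts, in place 11 of 15, with 13782, 16258 and 27662 in HS hearts 1 to 3. It lay below mt-Nd5 (15795) in HS heart 1 and above it (14900 and 15541) in HS hearts 2 and 3. The mean of mt-Nd5 stood in place 13 after 10 in the sham group, and that of mt-Nd6 in place 14 after 12. In the sham group mt-Nd5 (19878 ± 1003) and mt-Atp8 (19744 ± 959) did not separate. These places describe poly(A)-selected RNA.

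**Figure D3:**
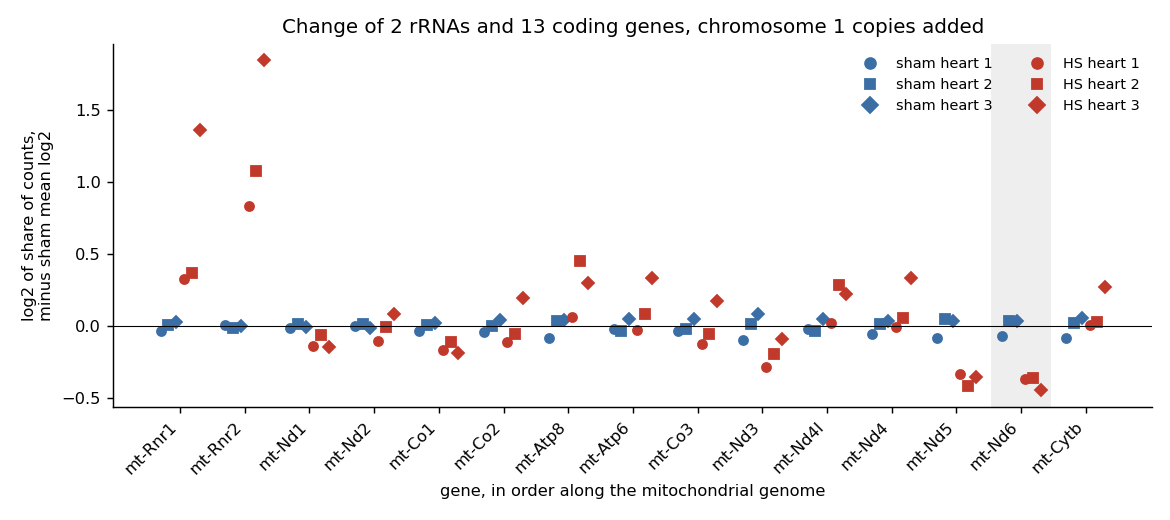
Log2 share of counts of each heart minus the mean log2 share of the sham hearts, for 2 rRNAs and 13 coding genes in their order along the mitochondrial genome, with chromosome 1 copies added; grey marks mt-Nd6, the only light-strand gene shown. The HS hearts (red) reach 1.84 for mt-Rnr2 and lie between -0.33 and -0.44 for mt-Nd5 and mt-Nd6, while those of mt-Nd1, next to mt-Rnr2, lie between -0.14 and -0.06.

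Complex I, the NADH dehydrogenase that feeds electrons into the chain, has 7 mitochondrial genes. Its largest mitochondrial subunit gene, mt-Nd5 (chrM:11742-13565), took 3.42, 3.75 and 3.71% of counts in the sham group and 2.88, 2.72 and 2.83% in the HS group. Every HS heart was below every sham heart, and the HS hearts were close together. The log2 fold change was -0.32 (SE 0.11, edgeR adjusted p = 0.303), from -0.40 to -0.28 over the alternatives, so the direction held in all of them without a call.

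Its neighbour mt-Nd6 (chrM:13552-14070) is the one coding gene of the light strand. It took 0.820, 0.883 and 0.882% in the sham group and 0.667, 0.672 and 0.633% in the HS group, with no overlap. The log2 fold change was -0.34 (SE 0.10, edgeR adjusted p = 0.273), from -0.40 to -0.30 over the alternatives, none of which gave a call. The genes mt-Nd5 and mt-Nd6 run towards each other and share their last 14 bases, in capitals below (mt-Nd5 at chrM:13536-13565, plus strand; mt-Nd6 at chrM:13552-13581, minus strand).
mt-Nd5: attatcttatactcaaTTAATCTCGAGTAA
mt-Nd6: tttattattatcgagaTTACTCGAGATTAA

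The counts of these neighbours kept a near constant ratio, with 24.0, 23.5 and 23.8 counts of mt-Nd6 per 100 of mt-Nd5 in the sham group and 23.2, 24.7 and 22.3 in the HS group. The groups overlapped. Whether reads were assigned by strand is not given in the sources used here, so RNA of mt-Nd6 and RNA antisense to it, from the same stretch of the heavy-strand transcript, cannot be told apart.

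The other complex I genes moved less. As a percent of counts, mt-Nd1 had 3.17, 3.24 and 3.18% in the sham group and 2.91, 3.06 and 2.90% in the HS group, which do not overlap, but on the scale of normalized CPM they did (log2 fold change -0.06, edgeR adjusted p = 0.794). With copies added, mt-Nd3 had 0.854, 0.926 and 0.968% in the sham group and 0.752, 0.801 and 0.860% in the HS group, where HS heart 3 just reached the sham range. Overlap as a percent of counts was also seen for mt-Nd2 and mt-Nd4, with log2 fold changes of 0.05 and 0.20. With its copy added, mt-Nd4l had 0.412, 0.409 and 0.432% in the sham group and 0.423, 0.508 and 0.488% in the HS group, where HS heart 1 lay within the sham range. Its log2 fold change was 0.24 with the copy added (edgeR adjusted p = 0.455) and 0.13 as deposited (edgeR adjusted p = 0.672). The sign for mt-Nd2 was turned by scaling to library size only (-0.01).

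Complex III has mt-Cytb, cytochrome b, as its only mitochondrial gene. It took 3.92, 4.20 and 4.31% of counts in the sham group and 4.16, 4.23 and 4.99% in the HS group. Only HS heart 3 was above the sham range, and the log2 fold change was 0.17 (SE 0.15, edgeR adjusted p = 0.622).

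Complex IV, cytochrome c oxidase, passes electrons to oxygen. Its mt-Co1 took 12.7 to 13.2% in the sham group and 11.6, 12.0 and 11.4% in the HS group with the copy added. The groups lay apart on this scale and overlapped in normalized CPM, where the log2 fold change of the counts as deposited was -0.10 (edgeR adjusted p = 0.658). With copies added, mt-Co2 took 4.73, 4.87 and 5.02% in the sham group and 4.51, 4.69 and 5.57% in the HS group, below the sham range in HS hearts 1 and 2 and above it in HS heart 3.

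For mt-Co2 the handling of the copies turned the sign, from a log2 fold change of -0.17 as deposited to 0.08 with copies added. It did so for mt-Co3 as well, from -0.04 to 0.07. The counts left on mt-Co2 as deposited were 26419, 23937 and 24587 in the sham group and 18049, 19096 and 26670 in the HS group, of 1137586 to 1230555 for the pair. Without HS heart 3, edgeR called this remainder lower (log2 fold change -0.56, adjusted p = 0.0252), while 97.7 to 98.5% of the pair's counts stood on the copy.

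The ATP synthase has mt-Atp8 and mt-Atp6, whose coding parts overlap by 43 bases. mt-Atp8 took 0.380, 0.413 and 0.416% in the sham group and 0.421, 0.551 and 0.494% in the HS group. These do not overlap as a percent of counts, with HS heart 1 just above the sham hearts, and do overlap in normalized CPM (log2 fold change 0.34, SE 0.15, edgeR adjusted p = 0.376). No copy was added to mt-Atp8, although it lies within the span matched by the chromosome 1 block. With copies added, mt-Atp6 took 2.48, 2.45 and 2.61% in the sham group and 2.47, 2.66 and 3.17% in the HS group, which overlap.

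Within the mRNAs alone, with copies added and with no scaling between hearts, complexes I and IV made up less of the total in the HS group and complex III and the ATP synthase more. Complex I made up 34.7, 35.2 and 34.6% of mitochondrial mRNA counts in the sham group and 34.1, 33.9 and 33.7% in the HS group. Complex IV made up 49.6, 49.1 and 49.4% against 48.7, 48.7 and 47.4%. In neither did the groups overlap, and the mean differences were -0.951 and -1.10 percentage points.

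Complex III made up 9.05, 9.35 and 9.45% of mitochondrial mRNA counts in the sham group and 10.2, 9.93 and 10.9% in the HS group. The ATP synthase made up 6.60, 6.37 and 6.62% against 7.06, 7.54 and 8.00%. Both lay apart in the other direction, by 1.05 and 1.00 percentage points. By gene on this scale, mt-Atp8, mt-Atp6, mt-Nd4l, mt-Nd4 and mt-Cytb were higher in every HS heart, mt-Co1, mt-Nd3, mt-Nd5 and mt-Nd6 lower, and 4 genes overlapped. This scale has no share over all genes to set beside it. As a percent of all counts with copies added, 1 of the 13 was higher and 4 lower. In normalized CPM as deposited, 0 were higher (background 11%) and 2 lower (background 10.9%). The shares of mitochondrial mRNA counts add up to a whole, so a larger part of one lowers the rest, and they were described without a test.

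**Figure D4:**
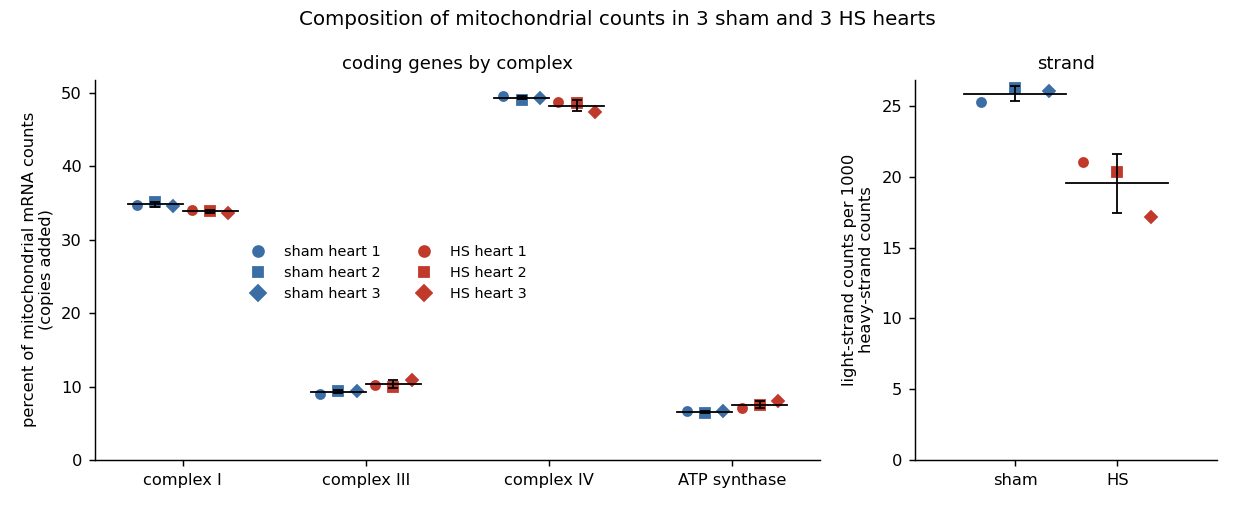
Percent of mitochondrial mRNA counts by complex, with chromosome 1 copies added (left), and counts of light-strand genes per 1000 counts of heavy-strand genes (right), in each heart. Points are hearts, lines are group means and bars are 1 SD (n = 3 per group); the light-strand ratio is 25.3 to 26.3 in the sham group and 17.2 to 21.1 in the HS group.

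By strand, light-strand genes had 25.3, 26.3 and 26.1 counts per 1000 counts of heavy-strand genes in the sham group and 21.1, 20.4 and 17.2 in the HS group. The ratio was lower in every HS heart (exact permutation p = 0.1, adjusted p = 0.15). Nearly all light-strand counts were those of mt-Nd6, and the rRNAs are part of the heavy-strand counts, so this ratio holds both results given above. With copies added it was 18.5, 19.3 and 19.0 against 15.5, 14.9 and 12.5. In the counts as deposited, the coding genes alone gave a difference of -5.32, against -6.35 for all genes of each strand.

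Position along the genome gave no further order. The correlations that follow used log2 fold changes of the counts as deposited, without the copies added. Over the 15 rRNA and coding genes, the log2 fold change fell with the start of the gene (Pearson's r = -0.615, Spearman's rho = -0.350), with the rRNAs at the beginning. Over the 13 coding genes, without the rRNAs, the values were -0.123 and -0.005, and over the 12 coding genes of the heavy strand 0.110 and 0.196. Genes cut from the same long RNA share their source, so these values are descriptions.

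The 22 tRNA genes, of 59 to 75 bases, were barely caught by these libraries, with 174, 185 and 155 counts in all in the sham group and 130, 161 and 114 in the HS group. Mature tRNAs carry no poly(A) tail. As a share of counts the tRNAs were lower in every HS heart, from 0.000661 to 0.000792% in sham and from 0.000503 to 0.000632% in the HS group (exact permutation p = 0.1, adjusted p = 0.15). Against the mRNAs of the same library the groups overlapped, with a mean difference of -0.32 in the log2 ratio (exact permutation p = 0.2, adjusted p = 0.225).

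The 8 light-strand tRNAs held most of these counts, 141 to 164 in the sham group and 102 to 152 in the HS group. The 14 heavy-strand tRNAs held 20, 21 and 14 counts in the sham group and 7, 9 and 12 in the HS group, lower in every HS heart, although these counts are few. At least 10 counts in some heart were seen for 6 tRNAs, all of the light strand. In all hearts 6 tRNAs, all of the heavy strand, had 0 counts, and a count of 0 allows up to 3 counts per heart.

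The tRNA with the most counts was mt-Ts1, a tRNA for serine, with 94, 91 and 78 counts in the sham group and 60, 91 and 60 in the HS group. These overlap, and its log2 fold change was -0.31 (SE 0.23, edgeR adjusted p = 0.549). It lies opposite the end of mt-Co1, with which it shares 3 bases, at chrM:6870-6938 on the minus strand, and its 69 bases are shown as those of the best covered tRNA.
mt-Ts1: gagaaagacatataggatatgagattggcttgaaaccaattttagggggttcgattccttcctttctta

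Of the other tRNAs tested, mt-Tq (glutamine) had 14, 11 and 12 counts in the sham group and 11, 4 and 7 in the HS group, with a log2 fold change of -0.75 (SE 0.43, edgeR adjusted p = 0.466). Its normalized CPM did not overlap. For mt-Tn (asparagine) and mt-Te (glutamate) the log2 fold changes were -0.61 and 0.08, with overlap. The leucine tRNA mt-Tl1, between mt-Rnr2 and mt-Nd1, was under the filter with 6, 5 and 6 counts in the sham group and 1, 2 and 3 counts in the HS group, and mt-Tv, between the rRNAs, had 1 count in 1 sham heart.

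The nuclear genome encodes the proteins that copy, read and process the mitochondrial one, and they were examined as lists. In 4 such lists edgeR, DESeq2 and limma-voom each called 0 genes. Of 19 tested genes of mitochondrial transcription and replication, none passed an unadjusted p of 0.05, 6 had lower CPM in every HS heart (background 10.9%), and the median log2 fold change was -0.11. Tfam, which packs and activates mitochondrial DNA, had 29.7, 29.6 and 34.0 CPM in the sham group and 27.4, 29.1 and 21.8 CPM in the HS group (log2 fold change -0.25, edgeR adjusted p = 0.428). HS heart 2 lay just below the sham hearts and HS heart 3 further below.

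Mterf1a, a mouse gene of the MTERF1 family named above, had 1.83, 1.80 and 2.14 CPM in the sham group and 1.15, 1.18 and 1.62 CPM in the HS group. The groups did not overlap, with only 30 to 50 counts per heart, and the log2 fold change was -0.55 (SE 0.25, edgeR adjusted p = 0.386). Mterf1b, also of this family and named after its values were seen, had 25, 23 and 14 counts in the sham group. It had 24, 18 and 21 counts in the HS group, and its CPM overlapped (log2 fold change 0.03, edgeR adjusted p = 0.970). Rnaseh1, which removes RNA primers, and Mrpl12, a ribosomal protein that also binds the mitochondrial RNA polymerase, had log2 fold changes of -0.41 and -0.24 (edgeR adjusted p = 0.396 and 0.422).

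Of 24 genes of mitochondrial RNA processing, tailing and turnover, 5 had lower CPM in every HS heart (background 10.9%) and none higher (background 11%). The median log2 fold change was -0.13. At an unadjusted p under 0.05, 1 was lower, a share near the background of 4.76%. That gene was Mtpap, the poly(A) polymerase, with 20.5, 19.4 and 20.3 CPM in the sham group and 17.7, 16.8 and 15.6 CPM in the HS group. All HS hearts were lower, and the log2 fold change was -0.26 (SE 0.10, edgeR adjusted p = 0.322). Hsd17b10, a subunit of mitochondrial RNase P, had a log2 fold change of -0.23 (edgeR adjusted p = 0.380).

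Of 27 genes of rRNA and tRNA modification and ribosome assembly, 5 had lower CPM in every HS heart (background 10.9%) and none higher (background 11%). At an unadjusted p under 0.05, 1 was lower (background 4.76%, again near this share). It was Ddx28, a helicase of 16S rRNA assembly (log2 fold change -0.60, SE 0.23, edgeR adjusted p = 0.326). It had 5.06, 4.82 and 4.07 CPM in the sham group and 3.21, 3.71 and 2.23 CPM in the HS group, with no overlap. The list's median was -0.15, and HS heart 3 had the lowest median difference from sham hearts, -0.41, against -0.12 and -0.01 in HS hearts 1 and 2. Mrm2, which methylates 16S rRNA, had a log2 fold change of -0.40 (edgeR adjusted p = 0.401).

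Of 19 regulators of mitochondrial biogenesis, 1 was higher at an unadjusted p under 0.05, a share below the background of 8.83%. It was the deacetylase Sirt1, with 12.5, 12.1 and 12.6 CPM in the sham group and 16.3, 16.6 and 28.1 CPM in the HS group. It was higher in every HS heart, with a log2 fold change of 0.71 (SE 0.22, edgeR adjusted p = 0.288). The list's median was -0.06.

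Each complex is built from mitochondrial and nuclear subunits, so their RNAs were set side by side. Of 36 nuclear subunit genes of complex I, 5 were lower with an unadjusted p under 0.05 and none higher, and of 9, 14 and 17 genes of complexes III and IV and of the ATP synthase, 0, 4 and 6 were lower and none higher. Over all genes tested, 4.76% were lower and 8.83% higher by this rule. CPM were lower in every HS heart for 10, 2, 4 and 10 genes of complexes I, III and IV and of the ATP synthase (background 10.9%) and higher in every HS heart for none (background 11%). edgeR, DESeq2 and limma-voom called 0 of them, and the median log2 fold changes were -0.13, -0.15, -0.14 and -0.19. The lower levels were those of HS hearts 1 and 3. The lists' median differences from the sham mean, on the log2 scale, lay between -0.30 and -0.23 in HS heart 1 and between -0.20 and -0.14 in HS heart 3, against -0.06 to 0.02 in HS heart 2. HS hearts 1 and 3 are also those with the high atrial and fibroblast marker sums, whose part in these levels was not tested. An example is Ndufb8 of complex I, with 279, 284 and 288 CPM in the sham group and 220, 268 and 213 CPM in the HS group (log2 fold change -0.28, edgeR adjusted p = 0.331), where HS heart 2 was nearest to the sham hearts.

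Summed over subunits, the mitochondrial RNAs of complex I (copies added) had 23.7, 26.0 and 25.6 counts per count of nuclear subunits in the sham group and 24.8, 23.6 and 31.8 in the HS group. For the ATP synthase the values were 2.71, 2.78 and 2.90 against 2.95, 3.17 and 4.31, and for complex III 12.2, 13.2 and 13.6 against 14.4, 13.7 and 20.8. The ATP synthase and complex III lay apart between the groups, while complexes I and IV overlapped. HS heart 3 was the highest in all 4 complexes, with mitochondrial levels above and nuclear levels below the sham mean on the log2 scale.

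**Figure D5:**
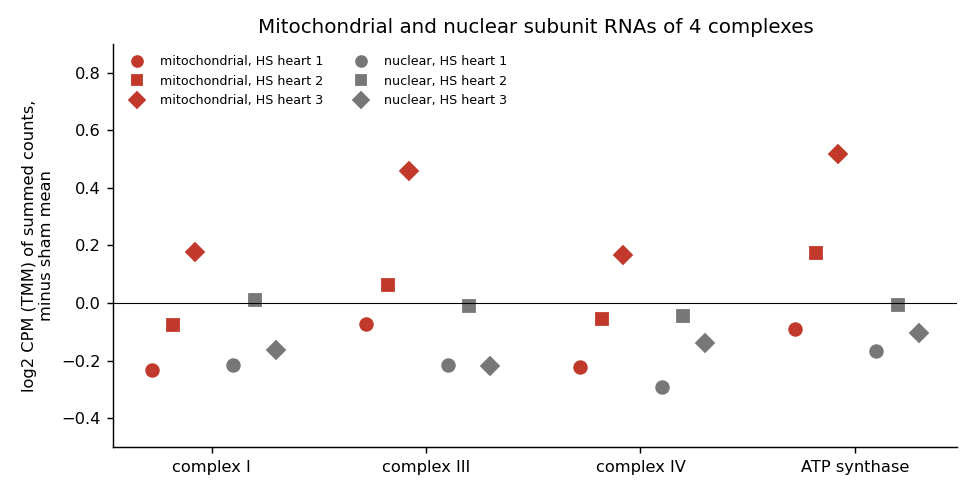
Log2 of normalized CPM summed over the mitochondrial subunit genes (red, copies added) and over the nuclear subunit genes (grey) of each complex, minus the mean of the sham hearts, in HS hearts 1 to 3. In HS heart 3 the mitochondrial sum is higher by 0.17 to 0.52 and the nuclear sum is -0.22 to -0.10, while in HS heart 1 both are below 0.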

How the data were processed

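RNA of 3 sham and 3 HS hearts was sequenced, 1 library per heart. The authors trimmed reads with fastp and used Hisat2 for alignment. The genome build mm10 is named in the submitters' notes on processing. The deposited values are estimated counts per transcript, not normalized. Not given in the sources used here are the program that counted, its annotation and whether it used strand. Estimated counts of 149132 transcripts were rounded to whole numbers after summing them per gene, which left 27685 genes with a count. Each mitochondrial gene has 1 transcript, and 10 coding genes hold values that are not whole.

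Genes passed filterByExpr (minimum count 10, minimum total 15; 14717 genes). The quasi-likelihood test of edgeR 4.0.16 (TMM, robust, group only) was fitted to all of them with Benjamini-Hochberg adjustment, and CPM are on the TMM scale. Log2 CPM used a prior count of 2. Shares and ratios of counts were tested by exact two-sided permutation over hearts. Shared sequence was found by BLAST 2.17.0 of GENCODE vM21 transcripts, with at least 90% identity over 100 bases in the same direction. A copy was added to its gene at 99% or more over 200 bases. The fit was tested on simulated data. R 4.3.3, limma 3.58.1, DESeq2 1.42.0, Python 3.11.15, scipy 1.17.1 and matplotlib 3.10.9 were used.

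Groups come from the sample titles. Nothing beyond the labels' word biosample says that hearts differ in litter or day, so p-values measure the spread between these samples. Intervals and limits of a count of 0 cover counting error only. All mitochondrial genes are accounted for, and of each nuclear list up to 4 genes with the smallest p could be named. Rpph1, Rmrp, Rn7s1, Rn7s2, Scarna2, Rn18s-rs5 and Mterf1b were named after their values were seen. The mitochondrial genes and the lists were chosen with earlier results of these data known. Alternatives were other normalizations and denominators, no filter, DESeq2, limma-voom, a replicate block, the paper's thresholds, leaving out each heart, and, chosen after seeing the data, leaving out HS hearts 1 and 3 and adding the copies.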

Additional observations from a re-analysis of the deposited data

How the results depend on the processing

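The count of mitochondrial genes called was 0 with edgeR and stayed 0 under every other normalization, no filter, limma-voom and copies added. It was 1 with DESeq2 (mt-Rnr2, adjusted p = 0.000414) and 1 at an unadjusted p under 0.05 with an absolute log2 fold change over 1 (mt-Rnr2). Leaving out 1 heart at a time gave 0 to 2, with the 2 (mt-Rnr2 and mt-Co2) arising without HS heart 3. Leaving out HS hearts 1 and 3 leaves a lone HS heart with no replicate, so its calls are not counted here. The directions of mt-Rnr1, mt-Rnr2, mt-Nd5 and mt-Nd6 held in all 15 alternatives. Log2 fold changes that crossed 0 belonged to small effects. Library size only gave -0.008 for mt-Nd2, and copies added gave 0.0766 for mt-Co2 and 0.066 for mt-Co3. Leaving out 1 heart at a time gave -0.12 to 0.0024 for mt-Nd1, -0.0751 to 0.15 for mt-Nd2, -0.56 to 0.0157 for mt-Co2, -0.0995 to 0.27 for mt-Atp6, -0.33 to 0.11 for mt-Co3, -0.42 to 0.0104 for mt-Nd3, -0.0034 to 0.23 for mt-Nd4l, -0.22 to 0.27 for mt-Te and -0.006 to 0.27 for mt-Cytb, and the cause was not tested. The share of counts of all mitochondrial genes differed by 0.376 percentage points, and by -1.12 to 1.46 when 1 heart was left out, negative without sham heart 1 (-0.0763) and without HS heart 3. That of the rRNAs differed by 2.14, and by 1.28 without HS heart 3. Samples with the same replicate number correlated at -0.0608, 0.132 and 0.0116 in their deviations from the group means, so the numbers do not pair the hearts, and the fit with a replicate block called 0 mitochondrial genes (log2 fold change of mt-Rnr2 1.30). Over all genes tested, 9 were called with edgeR, 351 with DESeq2, 287 without HS heart 2 and 93 without HS heart 3. Low counts limit what can be said of single tRNAs, of which 4 of 22 had enough counts for the test.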
